A study of Mus musculus with 7 samples.

Results

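The genes described here encode receptors for interleukins and interferons and the receptors of the tumour necrosis factor (TNF) superfamily. They were the rows of a gene-level table whose symbol begins with Il, a number and r, with Ifnar, Ifngr or Ifnlr, or with Tnfrsf, and Tnfrsf19 was left out. That gave 65 of 23358 rows, of which 41 were named as interleukin receptors, 5 as interferon receptors and 19 as TNF receptors. The naming also takes in Il1rn, the secreted antagonist of interleukin-1 (IL-1), and Il1rapl1 and Il1rapl2, which are best known at synapses. The series compared 4 libraries whose label says that they lack Tgfbr2, a receptor for transforming growth factor β, with 3 libraries labelled as controls. All 7 came from brains of C57Bl6 mouse embryos at stage E14.5, and the sorted cells were labelled endothelial. Cells of both groups were sorted on TdTomato, the red fluorescent protein that the Ai14 allele makes once Cre recombinase has acted, and 2000 to 5000 cells were used for each library. The sources used here do not give the Cre driver, the deleted exons or the number of embryos behind a library.

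Cytokine receptors are membrane proteins that mostly work as pairs or trimers of chains. Class I and class II receptors, for most interleukins and the interferons, pass their signal through Janus kinases (JAK) to STAT transcription factors. IL-1 family receptors use the adaptor MyD88 and IRAK kinases, and TNF receptors recruit TRAF proteins or, through a death domain, TRADD and FADD. Microglia, the macrophages of the brain, carry many of these receptors, while endothelium is known for its responses to IL-1 and TNF.

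Expression was given as FPKM, a read level corrected for transcript length and library size, with 1 value per gene and group in which the authors had already combined the libraries. No value per library was analysed here, so the spread between libraries and their depth are unknown, and the error measure is the q-value of the authors' Cuffdiff test, which covers only the spread between these libraries. A gene counted as tested when Cuffdiff gave it the status OK and it reached 1 FPKM in at least 1 group, and it was called at q under 0.05. A tested gene under 1 FPKM in 1 group passed the minimum only through the other, which forces a difference. Among 13356 tested genes, 23.9% were higher and 14.7% lower in the Tgfbr2-deficient group. Tgfbr2 itself stood at 65.4 FPKM in the Tgfbr2-deficient group and 91.1 FPKM in the control group, and its q was 0.0953 in the authors' deposited table, so it was not called. This whole-gene value does not separate deleted from remaining exons. Macrophage markers stood far above endothelial markers in both groups, although the cells were labelled endothelial. All 20 microglia and macrophage markers were tested and 18 fell, with a summed level of 5980 FPKM in the Tgfbr2-deficient group and 13042 FPKM in the control group. Their most abundant genes were the complement genes C1qb, at 1083 FPKM in the Tgfbr2-deficient group and 2432 FPKM in the control group, and C1qc, at 959 and 2026 FPKM in the same order. Of 20 endothelial markers 19 rose, and their summed level was 688 FPKM in the Tgfbr2-deficient group and 123 FPKM in the control group. The glucose transporter Slc2a1 was at 191 FPKM in the Tgfbr2-deficient group and 31.7 FPKM in the control group, and Egfl7, the marker that was not called, at 64.7 and 47.7 FPKM in the same order. No marker of either list was at 0. Of 10 megakaryocyte and platelet markers 8 rose, Ppbp to 20.7 FPKM in the Tgfbr2-deficient group, against 4.88 FPKM in the control group, while Pf4 fell to 747 FPKM, against 1877 FPKM. Of 8 erythroid markers 7 rose and 1 fell, with Hbb-bh1 at 819 FPKM in the Tgfbr2-deficient group and 155 FPKM in the control group and Alas2 at 1282 and 153 FPKM. Of 8 tested neutrophil markers 3 rose, while Csf3r fell to 8.36 FPKM in the Tgfbr2-deficient group, against 18.6 FPKM in the control group, and Prtn3, not called, was at 7.06 and 5.84 FPKM. Among 10 markers of pericytes and smooth muscle there were 8 rises and 0 falls, with Myl9 at 45 FPKM in the Tgfbr2-deficient group and 4.46 FPKM in the control group and Anpep, not called, at 3.87 and 3.07 FPKM. All 10 fibroblast and meninges markers rose, with Col1a1 at 404 FPKM in the Tgfbr2-deficient group and 44.1 FPKM in the control group and Col3a1 at 305 and 38.8 FPKM. All 12 markers of neurons and their progenitors rose, with Tubb3 at 126 FPKM in the Tgfbr2-deficient group and 66.8 FPKM in the control group and Fabp7 at 74.8 and 25.5 FPKM. In such bulk samples fewer cells of a type and less RNA per cell cannot be told apart.

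Most of the abundant receptors fell in the Tgfbr2-deficient group, while the receptors that rose were scarce in the control group and no more frequent than among all genes. Il4ra, which binds interleukin-4 (IL-4), stood at 61.4 FPKM in the Tgfbr2-deficient group and 153 FPKM in the control group, and Ifngr1, the ligand-binding chain for interferon-γ, at 97.4 and 200 FPKM in the same order. Il7r, the receptor chain for interleukin-7 (IL-7), stood at 3.45 FPKM in the Tgfbr2-deficient group and 0.171 FPKM in the control group. At q under 0.05 in the authors' deposited table, 28 of the 44 tested members were called in either direction, against 38.6% of all tested genes. Members called higher numbered 10 (22.7% of 44, against 23.9% of all tested genes) and those called lower 18 (40.9%, against 14.7%), while 16 were not called. The median log2 fold over the tested members, taken on FPKM + 1, was -0.11, and over all tested genes it was -0.08. It turned to 0.11 with no minimum FPKM and to 0.43 when folds were centred on ribosomal protein genes, which adds 0.54 to every log2 fold.

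**Figure D1:**
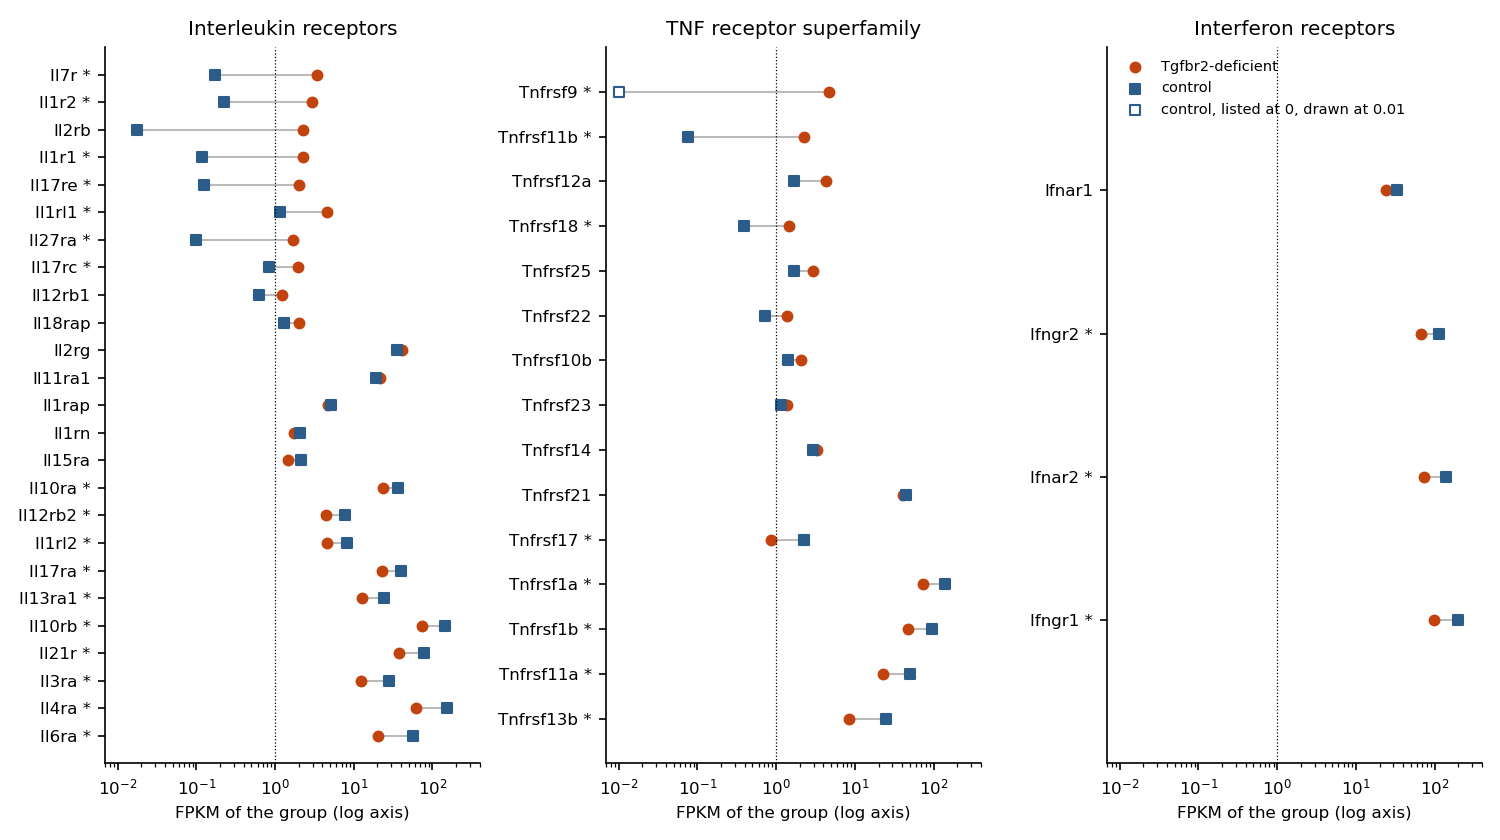
FPKM of each tested member in the Tgfbr2-deficient group (circles) and the control group (squares) on a log axis, by family, with an asterisk after each gene called at q under 0.05 and a dotted line at 1 FPKM. The open square marks Tnfrsf9, whose control value is listed at 0, and genes run from those with the highest log2 fold on FPKM + 1 at the top to those with the lowest at the bottom.

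The calls differed by the level of the gene. Of 19 members whose mean over both groups was at least 10 FPKM, 15 fell (78.9%) and 0 rose, where 25.4% of all tested genes at that level were lower and 9.69% higher. The other 4 were Ifnar1, Il2rg, Il11ra1 and Tnfrsf21. Among 25 tested members under that mean, 10 rose (40.0%) and 3 fell (12%), where 38.0% of all tested genes under it were higher and 4.16% lower. Of the 10 that rose, 9 were under 1 FPKM in the control group and so passed the minimum only through the Tgfbr2-deficient group, which forces a difference. The falls stand beside that of the macrophage markers and the rises beside those of the endothelial and other markers above, and the part of cell makeup in either was not tested.

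**Figure D2:**
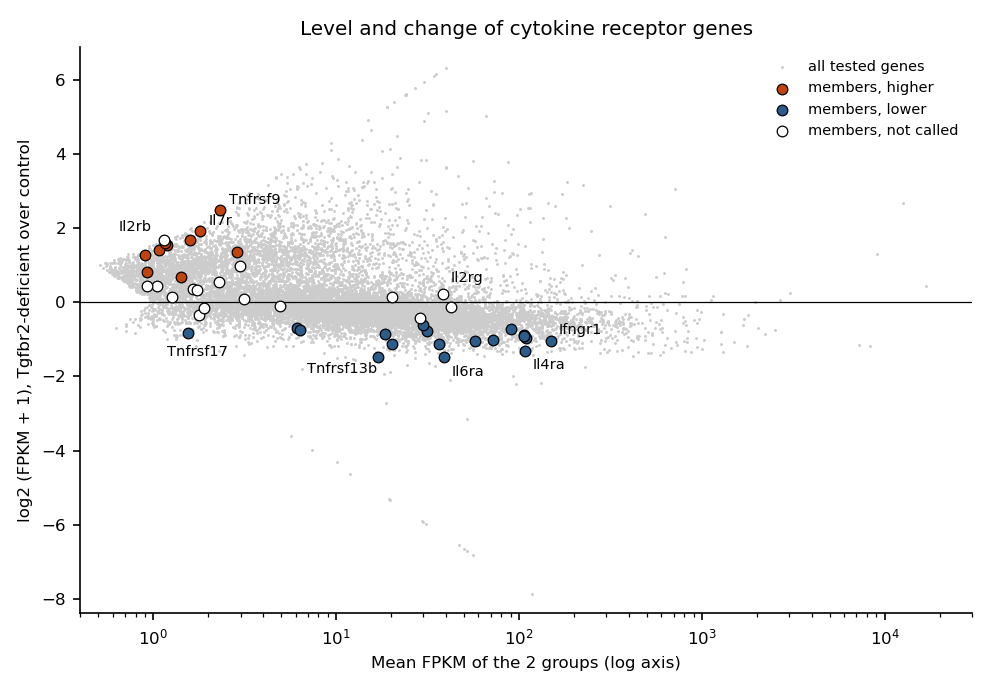
Log2 fold of FPKM + 1, Tgfbr2-deficient over control, against the mean FPKM of both groups on a log axis, with every tested gene as a grey dot and members as circles coloured by the call. The members called lower lie mostly above 10 FPKM and those called higher all lie below it.

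Promoters of the receptors with the largest changes are shown here, so that the letters before the starts of members that rose and members that fell can be compared. Each is the 250 bases before an annotated start, from RefSeq on GRCm38.p6, and windows were found for 54 of 65 members. For each direction the called members with the largest log2 fold on FPKM + 1 were taken that had 1 window with its start inside or next to the deposited locus. The search covered 4 motifs on both strands: TTCNNNGAA, the γ-activated site that STAT proteins bind, GAGGAAGT, a site of the myeloid factor PU.1, TGANTCA, the AP-1 site, and TATAAA, the TATA box. Capitals mark any match. Among the receptors that rose, Il7r and the IL-1 decoy receptor Il1r2 each held 1 γ-activated site, 134 and 103 bases before the start, and Il17re held no match.
Il7r, chr15:9529877-9530126, minus strand: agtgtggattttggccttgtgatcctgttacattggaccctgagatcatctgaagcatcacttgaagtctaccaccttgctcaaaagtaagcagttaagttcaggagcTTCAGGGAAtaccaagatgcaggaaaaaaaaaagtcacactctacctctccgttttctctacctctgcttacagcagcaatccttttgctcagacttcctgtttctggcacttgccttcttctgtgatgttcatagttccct
Il1r2, chr1:40085843-40086092, plus strand: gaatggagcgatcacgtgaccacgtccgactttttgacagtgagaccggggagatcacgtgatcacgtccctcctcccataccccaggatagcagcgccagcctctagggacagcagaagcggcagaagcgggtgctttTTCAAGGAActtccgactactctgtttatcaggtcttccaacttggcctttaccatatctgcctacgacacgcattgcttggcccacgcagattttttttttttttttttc
Il17re, chr6:113458521-113458770, plus strand: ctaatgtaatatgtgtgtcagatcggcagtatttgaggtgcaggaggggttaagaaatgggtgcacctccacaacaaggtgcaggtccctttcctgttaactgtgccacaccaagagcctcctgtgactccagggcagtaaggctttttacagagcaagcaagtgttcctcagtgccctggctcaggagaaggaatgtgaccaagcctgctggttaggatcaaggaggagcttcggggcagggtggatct
Among the receptors that fell, the windows of Il6ra, Il4ra and Il3ra held none of the 4 motifs, which says only that these letters are not in these windows.
Il6ra, chr3:89913197-89913446, minus strand: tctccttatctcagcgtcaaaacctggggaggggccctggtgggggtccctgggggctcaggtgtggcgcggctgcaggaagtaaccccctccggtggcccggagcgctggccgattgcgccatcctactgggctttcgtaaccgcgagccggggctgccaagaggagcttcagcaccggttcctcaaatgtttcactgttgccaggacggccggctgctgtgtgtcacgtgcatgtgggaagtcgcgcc
Il4ra, chr7:125552021-125552270, plus strand: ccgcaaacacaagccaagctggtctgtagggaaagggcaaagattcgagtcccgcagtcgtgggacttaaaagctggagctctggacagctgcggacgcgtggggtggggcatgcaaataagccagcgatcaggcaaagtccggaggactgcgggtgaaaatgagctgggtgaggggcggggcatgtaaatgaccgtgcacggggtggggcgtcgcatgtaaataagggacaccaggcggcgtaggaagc
Il3ra, chr14:14346245-14346494, plus strand: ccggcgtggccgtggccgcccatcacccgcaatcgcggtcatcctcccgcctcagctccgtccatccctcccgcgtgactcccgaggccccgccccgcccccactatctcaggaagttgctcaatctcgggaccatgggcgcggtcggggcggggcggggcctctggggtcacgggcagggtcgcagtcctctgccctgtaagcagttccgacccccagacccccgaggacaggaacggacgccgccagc
The γ-activated letters stood in the windows of 3 of 8 members that rose, of 4 of 15 that fell, and in 7.18% of 27025 gene windows of the same length. GAGGAAGT was in 0 of the 8 and 0 of the 15, against 2.44% of all windows, TGANTCA in 0 and 0, against 6.87%, and TATAAA in 0 and 2, against 13.0%. Over all 54 members with a window, the γ-activated letters were in 8, GAGGAAGT in 1, TGANTCA in 7 and TATAAA in 4. The median GC content of the windows was 49.8% for members that rose and 59.2% for members that fell, beside 52.0% for all genes. The ranges overlapped, at 37.6 to 57.6% and 41.2 to 74.0%. Level differed too, with control group medians of 0.148 FPKM over all members that rose and 53.8 FPKM over all that fell. A link of GC content to direction was not tested.

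Receptors for the interferons were among the most abundant members, and all of the tested ones stood lower in the Tgfbr2-deficient group. So did 5100 of 6646 tested genes with a mean of at least 10 FPKM, the level of these receptors. Of the 4 tested receptors 3 were called lower (75.0%), against 25.4% of all tested genes at that level. Ifngr1 fell by 1.03 on the log2 scale of FPKM + 1 and Ifngr2, its signalling partner, by 0.72, at 68.0 FPKM in the Tgfbr2-deficient group and 113 FPKM in the control group. Ifnar2, a chain of the receptor for interferon-α and interferon-β, fell by 0.91, at 73.4 FPKM in the Tgfbr2-deficient group and 139 FPKM in the control group. In the authors' deposited table q was 2.90e-04 for Ifngr1, 0.00145 for Ifnar2 and 0.00244 for Ifngr2. Ifnar1, the other chain of that receptor, was at 24.4 FPKM in the Tgfbr2-deficient group and 33.0 FPKM in the control group and was not called (q = 0.0912 in the authors' deposited table). Ifnlr1, the specific chain for interferon-λ, which acts mainly on epithelia, was at 0.286 FPKM in the Tgfbr2-deficient group and 0.0327 FPKM in the control group and had no test.

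Il10rb, a chain shared by the receptors for interleukin-10 (IL-10), interleukin-22 (IL-22) and interferon-λ, fell with them. It stood at 74.1 FPKM in the Tgfbr2-deficient group and 145 FPKM in the control group. Its partner for IL-10, Il10ra, was at 23.4 FPKM in the Tgfbr2-deficient group and 36.3 FPKM in the control group. Both were called lower, Il10ra with q = 0.0132 in the authors' deposited table. Il22ra1, Il20ra, Il20rb and Il22ra2, a soluble decoy for IL-22, were at or under 0.407 FPKM in both groups.

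Genes of the IL-4 receptor complexes split between chains. Il4ra fell by 1.30 and Il13ra1, with which it forms the receptor for interleukin-13 (IL-13), by 0.86, at 12.9 FPKM in the Tgfbr2-deficient group and 24.1 FPKM in the control group. Il21r, the private chain for interleukin-21 (IL-21), fell by 1.03, at 37.5 FPKM in the Tgfbr2-deficient group and 77.6 FPKM in the control group. Each of these had q = 2.90e-04 in the authors' deposited table. Il2rg, the common γ chain with which Il4ra and Il21r pair, shares 27.5% of the 50-base words of its GENCODE M21 transcripts with Gm20489 and was at 41.3 FPKM in the Tgfbr2-deficient group and 35.1 FPKM in the control group (q = 0.419 in the authors' deposited table). Set side by side as FPKM, Il4ra was 1.49 times Il2rg in the Tgfbr2-deficient group and 4.36 times in the control group, and Il21r 0.908 and 2.21 times in the same order, a difference between chains that was not tested. Il13ra2, the decoy receptor for IL-13, was at 0.0105 FPKM in the Tgfbr2-deficient group and listed at 0 in the control group.

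Of the lymphoid partners of Il2rg, Il7r rose by 1.93 with q = 2.90e-04 in the authors' deposited table. Il2rb, the shared chain of the receptors for interleukin-2 (IL-2) and interleukin-15 (IL-15), was at 2.29 FPKM in the Tgfbr2-deficient group and 0.0176 FPKM in the control group, and Il9r, the chain for interleukin-9 (IL-9), at 0.705 and 0.00782 FPKM in the same order. Neither was called, with q = 0.379 and 0.358 in the authors' deposited table. Il15ra, which presents IL-15, was at 1.45 FPKM in the Tgfbr2-deficient group and 2.13 FPKM in the control group and was not called, and Il2ra had no test. Of 18 markers of T, B and NK lymphocytes, 7 were tested, 4 rose and 1 fell, and their summed level was 45.4 FPKM in the Tgfbr2-deficient group and 60.1 FPKM in the control group. The sum rests on Cd79b, a B cell receptor chain, at 19.8 FPKM in the Tgfbr2-deficient group and 52.3 FPKM in the control group. Without it, chosen after its value was seen, the other 6 summed to 25.5 FPKM in the Tgfbr2-deficient group and 7.81 FPKM in the control group. The T cell kinase Lck was at 2.99 FPKM in the Tgfbr2-deficient group and 0.193 FPKM in the control group and Nkg7, a granule gene of cytotoxic lymphocytes, at 7.36 and 0.173 FPKM, and both rose. The T cell markers Cd4, Cd3g and Cd3e were not called, and Cd4 was at 4.58 FPKM in the Tgfbr2-deficient group and 4.89 FPKM in the control group, Cd3g at 2.41 and 0.0978 FPKM, and Cd3e at 0.0354 FPKM and listed at 0. The part of such cells in the Il7r result was not tested.

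In the interleukin-6 (IL-6) family the ligand-binding chain fell while the shared chain did not pass. Il6ra fell by 1.47 on the log2 scale of FPKM + 1, at 20.1 FPKM in the Tgfbr2-deficient group and 57.4 FPKM in the control group. Il6st, the signalling chain gp130 used by the whole family, was at 16.5 FPKM in the Tgfbr2-deficient group and 17.3 FPKM in the control group, so Il6ra was 1.22 times Il6st in the Tgfbr2-deficient group and 3.32 times in the control group. Il27ra, which pairs with gp130 for interleukin-27 (IL-27), rose to 1.69 FPKM in the Tgfbr2-deficient group, against 0.10 FPKM in the control group (q = 0.0116 in the authors' deposited table). Il11ra1 was at 21.4 FPKM in the Tgfbr2-deficient group and 19.1 FPKM in the control group and was not called. Its value is uncertain, since 46.3% of the 50-base words of its transcripts also occur in the near-identical gene Gm13305, and Il11ra2, another copy, is listed at 0 in both groups.

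Il3ra, the binding chain for interleukin-3 (IL-3), fell by 1.13, at 12.3 FPKM in the Tgfbr2-deficient group and 28.1 FPKM in the control group. Csf2rb, its signalling chain, fell to 19.7 FPKM in the Tgfbr2-deficient group, against 29.2 FPKM in the control group (q = 0.0235 in the authors' deposited table). Il5ra, which uses the same chain, was under 1 FPKM and had no test. Il12rb2, the signalling chain for interleukin-12 (IL-12), was called lower at 4.42 FPKM in the Tgfbr2-deficient group and 7.78 FPKM in the control group (q = 0.00922 in the authors' deposited table). Of its 50-base words 38.0% lie in GENCODE M21 transcripts of the neighbour Serbp1 on the opposite strand, although the deposited loci of the pair do not overlap. Serbp1 stood at 32.2 FPKM in the Tgfbr2-deficient group and 42.5 FPKM in the control group, and the libraries do not mark strand, so the value of Il12rb2 is uncertain. Il12rb1, shared by the receptors for IL-12 and interleukin-23 (IL-23), was at 1.22 FPKM in the Tgfbr2-deficient group and 0.622 FPKM in the control group and was not called.

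IL-1 family receptors moved in both directions. Il1r1, the signalling receptor for IL-1, rose to 2.25 FPKM in the Tgfbr2-deficient group, against 0.119 FPKM in the control group. Il1r2, the decoy that binds IL-1 without signalling, rose to 2.96 FPKM in the Tgfbr2-deficient group, against 0.222 FPKM in the control group. Il1rl1, the receptor for interleukin-33 (IL-33) and a prominent receptor of mast cells, rose to 4.54 FPKM in the Tgfbr2-deficient group, against 1.17 FPKM in the control group. Il1rl2, the receptor for interleukin-36 (IL-36), fell to 4.53 FPKM in the Tgfbr2-deficient group, against 8.19 FPKM in the control group. In the authors' deposited table q was 2.90e-04 for Il1r1 and Il1rl1, 0.0240 for Il1r2 and 0.0119 for Il1rl2. Il1r1 and Il1r2, unlike Il1rl1, were under 1 FPKM in the control group. They passed the minimum only through the Tgfbr2-deficient group, which forces a difference. Il1rap, the accessory chain that Il1r1, Il1rl1 and Il1rl2 share, was at 4.70 FPKM in the Tgfbr2-deficient group and 5.11 FPKM in the control group and was not called. The antagonist Il1rn, at 1.76 FPKM in the Tgfbr2-deficient group and 2.05 FPKM in the control group, and Il18rap, the accessory chain for interleukin-18 (IL-18), at 1.99 and 1.32 FPKM in the same order, were not called either. Beside the rise of Il1rl1, 6 of 9 tested mast cell markers rose and 0 fell, and their summed level was 402 FPKM in the Tgfbr2-deficient group and 9.68 FPKM in the control group. Cpa3, a mast cell protease, was at 129 FPKM in the Tgfbr2-deficient group and 2.93 FPKM in the control group, and Kit at 27.8 and 1.98 FPKM in the same order. Their part in the result was not tested.

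Chains of the interleukin-17 (IL-17) receptors were also called in both directions. Il17ra, a chain shared by receptors of this family, fell by 0.77, at 22.9 FPKM in the Tgfbr2-deficient group and 39.9 FPKM in the control group. Il17rc, its partner for IL-17A, rose to 1.98 FPKM in the Tgfbr2-deficient group, against 0.838 FPKM in the control group, and Il17re, its partner for IL-17C, rose to 2.02 FPKM, against 0.124 FPKM. In the authors' deposited table q was 0.00102 for Il17ra, 0.0106 for Il17rc and 7.87e-04 for Il17re. Il17rc and Il17re were under 1 FPKM in the control group. Both passed the minimum only through the Tgfbr2-deficient group, which forces a difference. Il17rb and Il17rd were at most 0.657 FPKM in either group and had no test.

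Of 15 tested TNF receptors 5 fell (33.3%, against 14.7% of all tested genes) and 3 rose (20%, against 23.9%). Tnfrsf1a, the death domain receptor for TNF, stood at 74.3 FPKM in the Tgfbr2-deficient group and 139 FPKM in the control group, and Tnfrsf1b, the other TNF receptor, at 47.3 and 96.2 FPKM in the same order. Tnfrsf11a, the receptor RANK that drives osteoclast formation, fell by 1.12, at 22.6 FPKM in the Tgfbr2-deficient group and 50.3 FPKM in the control group. Tnfrsf13b, the receptor TACI for the B cell survival factors BAFF and APRIL, fell by 1.46, at 8.51 FPKM in the Tgfbr2-deficient group and 25.2 FPKM in the control group. In the authors' deposited table q was 5.44e-04 for both TNF receptors and 2.90e-04 for Tnfrsf11a and Tnfrsf13b. Tnfrsf17, the receptor BCMA for the same factors, fell to 0.850 FPKM in the Tgfbr2-deficient group, against 2.26 FPKM in the control group (q = 0.0364 in the authors' deposited table). These falls stand beside that of the macrophage markers, whose median log2 fold was -1.08 with a range of -1.44 to 0.09. The 18 members called lower ranged from -1.47 to -0.61, a range that their selection as lower keeps negative. All 44 tested members ranged from -1.47 to 2.50. The part of cell makeup in these falls was not tested.

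The TNF receptors that rose were scarce in the control group. Each was under 1 FPKM there and passed the minimum only through the Tgfbr2-deficient group, which forces a difference. Tnfrsf9, the co-stimulatory receptor 4-1BB, stood at 4.66 FPKM in the Tgfbr2-deficient group and was listed at 0 in the control group (q = 2.90e-04 in the authors' deposited table). It therefore has no finite fold without a pseudocount, and its log2 fold of 2.50 on FPKM + 1 rests on the pseudocount. Tnfrsf11b encodes osteoprotegerin, a secreted decoy that blocks the ligand of RANK. It rose to 2.25 FPKM in the Tgfbr2-deficient group, against 0.0753 FPKM in the control group. Tnfrsf18, the T cell receptor GITR, rose to 1.46 FPKM in the Tgfbr2-deficient group, against 0.392 FPKM in the control group, and 18.7% of its 50-base words lie in Gm16008, annotated on the opposite strand, which makes this value uncertain. In the authors' deposited table q was 0.00165 for Tnfrsf11b and 0.0279 for Tnfrsf18.

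No call was made for 7 tested TNF receptors. Tnfrsf21, death receptor 6, was the most abundant of them at 40.5 FPKM in the Tgfbr2-deficient group and 44.2 FPKM in the control group (q = 0.661 in the authors' deposited table). Tnfrsf12a, the receptor of TWEAK, was at 4.27 FPKM in the Tgfbr2-deficient group and 1.67 FPKM in the control group (q = 0.524 in the authors' deposited table). Tnfrsf14, the receptor HVEM, was at 3.27 and 2.97 FPKM in the same order, Tnfrsf25, death receptor 3, at 2.91 and 1.67 FPKM, and Tnfrsf10b, the mouse death receptor for TRAIL, at 2.07 and 1.42 FPKM. Tnfrsf22, a mouse decoy for TRAIL, was at 1.36 FPKM in the Tgfbr2-deficient group and 0.724 FPKM in the control group, and Tnfrsf23, another such decoy, at 1.38 and 1.14 FPKM in the same order. Of the 50-base words of Tnfrsf22, 17.3% occur in Tnfrsf23, so these values can trade reads.

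The remaining 21 members were not tested here. Cuffdiff gave 18 of them no test, and their levels ranged from 0 to 0.657 FPKM in the Tgfbr2-deficient group and from 0 to 0.440 FPKM in the control group. Among these were Tnfrsf4 and Tnfrsf8 of T cells, Il18r1, Il23r, Il31ra, Il1rapl1 and Il1rapl2. Another 3, Il9r, Tnfrsf13c and Tnfrsf26, had a test but stayed under 1 FPKM in both groups. Tnfrsf13c, the BAFF receptor, was at 0.762 FPKM in the Tgfbr2-deficient group and 0.0970 FPKM in the control group (q = 0.0123 in the authors' deposited table), and Tnfrsf26 at 0.863 and 0.339 FPKM in the same order, with q = 0.0171.

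Many members lie next to each other in the genome. At gaps of at most 100 kb, 30 members formed 11 clusters, given here in mm10 with starts counted from 1. On chromosome 16, from 91372783 to 91564007, Ifnar2, Il10rb, Ifnar1 and Ifngr2 all stood lower and 3 of the 4 were called. On chromosome 7, from 125552282 to 125633570, Il4ra and Il21r both fell, and on chromosome 6, from 113458484 to 113483163, Il17re and Il17rc both rose. The IL-1 receptor cluster on chromosome 1, from 40076212 to 40549297, held Il1r2, Il1r1 and Il1rl1, which rose, Il1rl2, which lies between them and fell, and Il18r1 and Il18rap. Of 6 neighbouring pairs with both members called, 4 moved in the same direction. Of these, Il1r2 with Il1r1 and Il17re with Il17rc lay under 1 FPKM in the control group. They passed the minimum only through the Tgfbr2-deficient group, which forces their direction. The share among neighbouring pairs of all genes was not computed. Il10rb begins 647 bases after the end of Ifnar2, and Gm21970, annotated in GENCODE M21 across both, shares 13.6% of the 50-base words of Il10rb and 7.89% of those of Ifnar2.

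**Figure D3:**
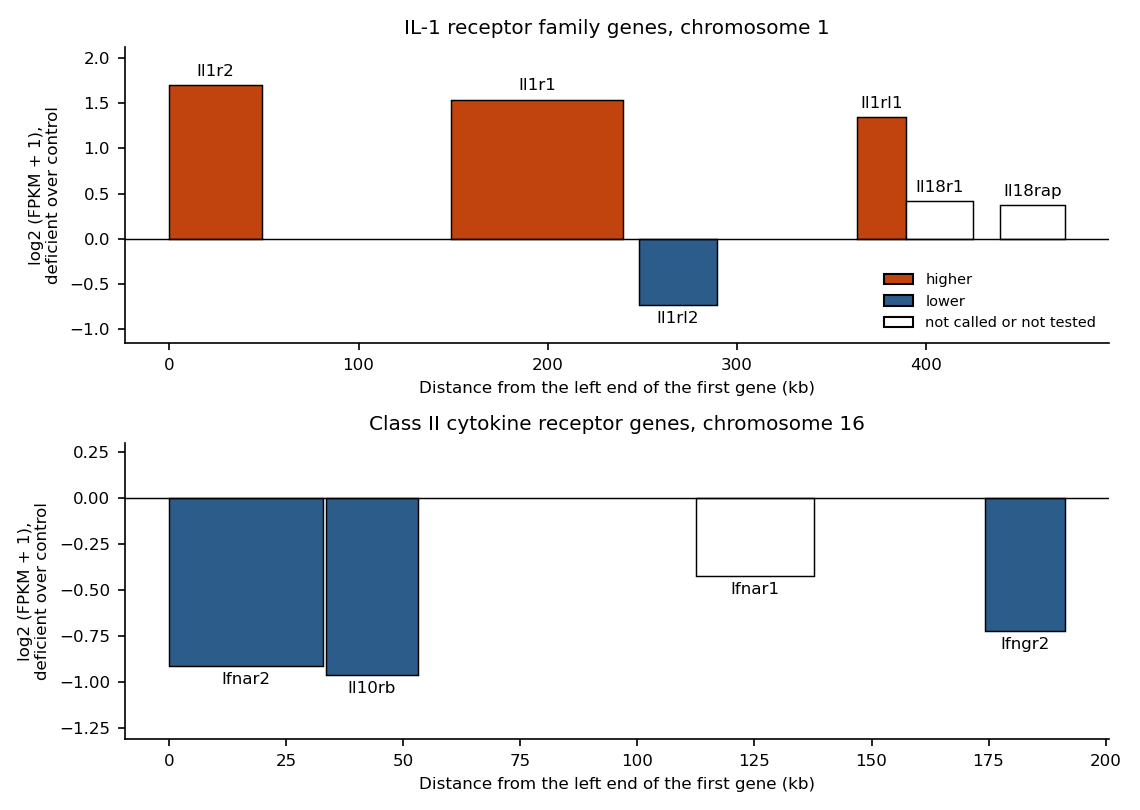
Log2 fold of FPKM + 1, Tgfbr2-deficient over control, for the genes of the chromosome 1 and chromosome 16 clusters, each bar drawn over the span of its gene in kb from the left end of the first gene. The bar of Il1rl2 at -0.73 points down between those of Il1r1 at 1.54 and Il1rl1 at 1.35, while all bars on chromosome 16 point down.

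Shared chains, receptors and soluble partners of these families that are named otherwise also moved both ways. Of 18 tested, 6 were higher and 6 lower (33.3% each, against 23.9% and 14.7% of all tested genes), with a median log2 fold of -0.13. The list holds the secreted proteins Ebi3 and Il18bp, and without this pair 5 of 16 were higher and 5 lower. Lepr, the leptin receptor, rose to 2.93 FPKM in the Tgfbr2-deficient group, against 0.354 FPKM in the control group, Ngfr, the low-affinity neurotrophin receptor of the TNF receptor superfamily, to 4.07 FPKM, against 0.861 FPKM, and Cntfr, for ciliary neurotrophic factor, to 16 FPKM, against 6.17 FPKM. Ebi3, a secreted subunit of IL-27, fell to 44.0 FPKM in the Tgfbr2-deficient group, against 104 FPKM in the control group. Each of these had q = 2.90e-04 in the authors' deposited table.

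Few ligands reached the level tested. Of 38 interleukin genes 10 were tested, and of these 4 were higher (40.0%) and 3 lower (30.0%), where 23.9% and 14.7% of all tested genes were. Among genes under a mean of 10 FPKM, where most of these ligands lie, the share called higher was 38.0%. Il17d rose to 4.68 FPKM in the Tgfbr2-deficient group, against 1.23 FPKM in the control group, and Il1b, a main form of IL-1, to 2.90 FPKM, against 0.771 FPKM. Il17b, another member of the IL-17 family, rose to 2.18 FPKM in the Tgfbr2-deficient group, against 0.585 FPKM in the control group. Il1b, Il17b and Il1a, which also rose, were under 1 FPKM in the control group. They passed the minimum only through the Tgfbr2-deficient group, which forces a difference. Il16, a leukocyte attractant, fell to 16.4 FPKM in the Tgfbr2-deficient group, against 31.2 FPKM in the control group. None of 7 interferon genes had a test. Of 18 TNF superfamily ligands 8 were tested, 3 higher (37.5%) and 1 lower (12.5%). Ltb, the lymphotoxin-β of lymphoid cells, rose to 24.3 FPKM in the Tgfbr2-deficient group, against 1.18 FPKM in the control group, by 3.54 on the log2 scale of FPKM + 1. Its receptor Ltbr fell to 37.4 FPKM in the Tgfbr2-deficient group, against 60.6 FPKM in the control group. Tnfsf14 rose to 1.65 FPKM, against 0.515 FPKM, and Tnfsf10, which encodes TRAIL, to 1.21 FPKM, against 0.612 FPKM. Both likewise passed the minimum only through the Tgfbr2-deficient group. Tnfsf18, the ligand of GITR, fell to 1.37 FPKM, against 2.70 FPKM. The largest q among the ligands named was 0.0270 for Il17b in the authors' deposited table.

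Proteins that carry the signal inward moved in both directions. Of 11 JAK and STAT genes 2 were higher (18.2%, against 23.9% of all tested genes) and 3 lower (27.3%, against 14.7%). Those lower were Stat6, the factor of IL-4 signalling, at 40.3 FPKM in the Tgfbr2-deficient group and 74.0 FPKM in the control group, Jak3, the kinase of Il2rg, at 31.3 and 57.1 FPKM, and Tyk2 at 18.3 and 30.2 FPKM. Those higher were Stat4, at 1.60 FPKM in the Tgfbr2-deficient group and 0.832 FPKM in the control group, and Jak2, at 12.5 and 8.67 FPKM. Of 10 tested adaptors of the IL-1 and IL-17 receptors 4 fell (40.0%) and 0 rose, with Myd88 at 41.4 FPKM in the Tgfbr2-deficient group and 91.4 FPKM in the control group and Irak4 at 9.77 and 18.8 FPKM. Irak2 was at 9.71 FPKM in the Tgfbr2-deficient group and 15.6 FPKM in the control group, and Irak1 at 39.1 and 59.9 FPKM. Of 14 tested TNF receptor adaptors 4 fell (28.6%, against 14.7% of all tested genes) and 1 rose (7.14%, against 23.9%). These adaptors lie on both sides of a mean of 10 FPKM. Of all tested genes, 25.4% were lower at or above that mean and 4.16% under it. Tradd was at 22.7 FPKM in the Tgfbr2-deficient group and 41.4 FPKM in the control group, Casp8, the initiator caspase of death receptors, at 31.6 and 56.7 FPKM, the kinase Ripk1 at 15.9 and 27.7 FPKM, and Traf4, which rose, at 20.9 and 6.66 FPKM. Some SOCS genes are induced by JAK and STAT signalling and inhibit it. Of 8 SOCS genes 3 rose (37.5%, beside 38.0% of all tested genes under a mean of 10 FPKM) and 0 fell. Socs1 rose to 9.0 FPKM in the Tgfbr2-deficient group, against 3.35 FPKM in the control group, Socs2 to 8.60 FPKM, against 3.44 FPKM, and Cish to 3.49 FPKM, against 1.72 FPKM. The largest q among these signalling genes was 0.0475, for Jak2, in the authors' deposited table.

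**Figure D4:**
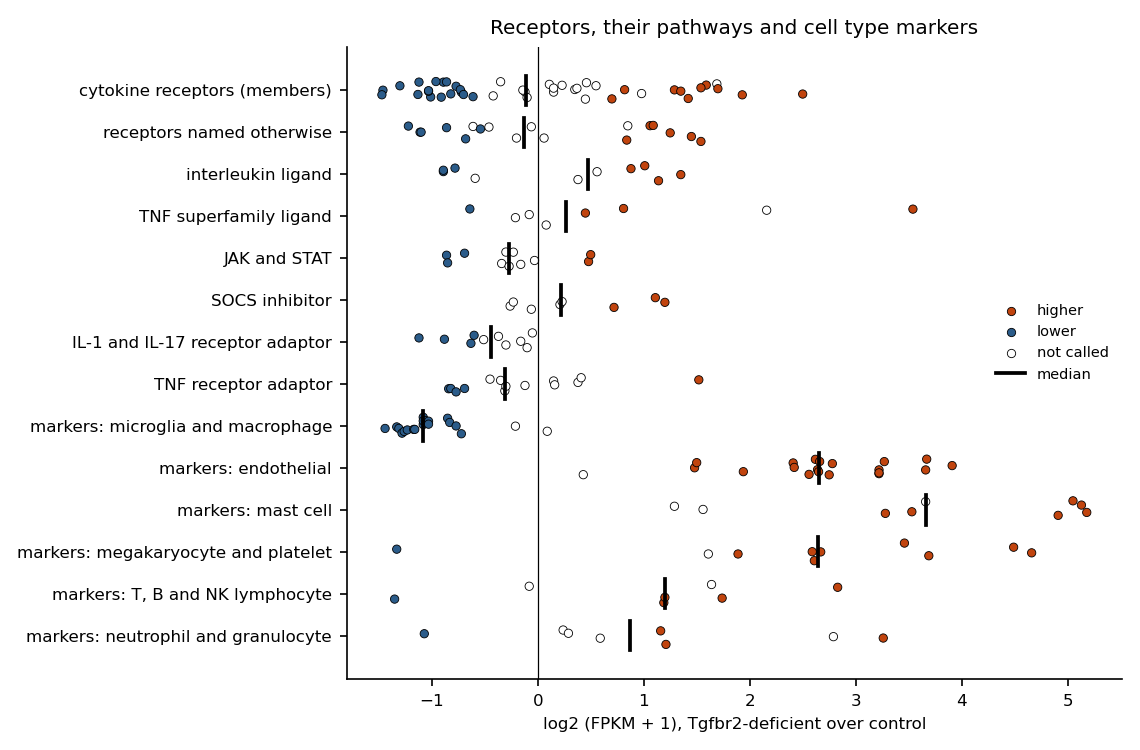
Log2 fold of FPKM + 1, Tgfbr2-deficient over control, with 1 point per tested gene coloured by the call and a bar at each list's median, for the receptors, their pathway lists and the markers of 6 cell types. The receptors spread from -1.47 to 2.50, where the upper end is Tnfrsf9 and rests on the pseudocount, while the macrophage markers lie between -1.44 and 0.09 and the endothelial markers between 0.43 and 3.91.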

How the data were processed

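RNA of 7 libraries was measured by sequencing of poly(A)+ libraries in single-end reads of 50 bases. Per the labels, kits were SMART-Seq v4 and Nextera XT, which do not mark strand. TopHat2, Cufflinks 2.2.1, Cuffdiff and mm10 are named in the submitters' processing notes, without options. The authors' deposited FPKM is 1 value per group and gene, the deposited log2 fold is that of Tgfbr2-deficient over control with no pseudocount, and the deposited p-value and q-value are those of Cuffdiff over the whole table. The deposited test score was not used. The smallest p-value, 5e-05, was shared by 2425 genes. Depth per library is unknown, so no intervals and no floors based on depth were set. The minimum of 1 FPKM does not rest on depth.

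Folds are log2 of (FPKM + 1), which understates the change of low genes. Genes with status OK and at least 1 FPKM in 1 group were called at q under 0.05, and no further test was run. The members and gene lists were chosen with earlier results of these data known. Of 258 list symbols 257 matched a row, 2 through RefSeq synonyms. Every tested member is named, with up to 4 called genes of each pathway list by size of fold and the 2 markers of each cell type that were most abundant in the control group. Genes named beyond this rule were chosen after their values were seen. Deposited starts count from 0 (with 1 added, 10536 of 21355 equal the RefSeq start), so 1 was added. GENCODE M21 transcripts gave the 50-base words shared between genes on either strand. Code for calls and adjustment was tested on simulated data. Python 3.11.15, pandas 2.3.3 and scipy 1.17.1 were used. Alternatives were other FPKM minimums, q thresholds, fold minimums, recomputed q-values, centrings and pseudocounts.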

Additional observations from a re-analysis of the deposited data

How the results depend on the processing

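Among the members, the count called higher was 10 and became 0 at a minimum of 5 FPKM and 6 at q under 0.01, and the count called lower was 18 and became 9 when a log2 fold of at least 1 was required. Over all genes, 3195 higher became 1643 at a minimum of 5 FPKM, and 1966 lower became 1026 at q under 0.01 and 368 with the fold minimum. With no minimum FPKM the member median of -0.11 became 0.11, and centred on ribosomal protein genes it became 0.43. That centring also turned 5 members that were not called, to 0.12 for Ifnar1, 0.19 for Il15ra, 0.44 for Il1rap, 0.40 for Il1rn and 0.42 for Tnfrsf21. Calls lost at q under 0.01 were those of 7 members: Il10ra, Il17rc, Il1r2, Il1rl2, Il27ra, Tnfrsf17 and Tnfrsf18. Recomputed q-values changed no call among the 44 tested members. A pseudocount of 0.1 FPKM cannot change a direction, and the calls rest on the deposited q-values, so it tests neither. Leaving out single libraries was not run, since the table analysed here has no values per library. No paired analysis was possible because the columns carry 1 value per group and no replicate numbers. Depth per library is unknown, so its effect on receptors under 1 FPKM could not be measured.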

Other observations

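Large ratios without a call stood among the lymphoid receptors: the deposited log2 fold, which has no pseudocount, was 7.02 for Il2rb and 6.50 for Il9r in the authors' deposited table, Tgfbr2-deficient over control, with p = 0.254 and 0.235. The summed level of the megakaryocyte and platelet markers was 903 FPKM in the Tgfbr2-deficient group and 1886 FPKM in the control group, and without Pf4, chosen after its value was seen, it was 156 and 8.66 FPKM in the same order.

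The member left out by name, Tnfrsf19, was at 9.81 FPKM in the Tgfbr2-deficient group and 1.57 FPKM in the control group (q = 2.90e-04 in the authors' deposited table).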
